A study of Oryza sativa with 4 samples.

Results

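The genes described here, measured in the young rice panicle, serve chlorophyll synthesis, light harvesting and photosystem I, activate Rubisco, or switch on genes of greening. They are *PORA*, *LHCP*, *CAB1R*, *CAB2R*, *PSAG*, *PSAH*, *RCA* and *GLK1*, and each was looked up by symbol or synonym in the rice gene table and represented by the probe set with the highest mean signal among those paired with that gene alone. Of these 8 genes, 7 had such a probe set, out of 17905 genes with one, and *CAB1R* was not analysed here. The synonym *LHCP* is shared by 3 genes in the table, of which the one that is neither *CAB1R* nor *CAB2R* was taken, LOC4333359. The other identifiers are LOC4337415 for *PORA*, LOC4324599 for *CAB2R*, LOC4337812 for *PSAG*, LOC4339593 for *PSAH*, LOC4351224 for *RCA* and LOC4340977 for *GLK1*. The genes were picked with their signals in *phoenix* (*pho*) and wild type (WT) already known, so the difference between the genotypes is given for them as a description, without a test.

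Signals came from 4 Affymetrix rice arrays of total RNA, with 1 WT and 1 *pho* array from panicles of 5–8 cm and 1 of each from panicles of 9–12 cm. WT was the *indica* cultivar Zhongxian 3037, and *pho* was a natural mutant from its progeny. The mutant combines a point mutation in the MADS-box gene *OsMADS15* with silencing of *OsMADS1*, and bears plantlets where flowers would form. Plants stood in paddy fields and no treatment is named. The labels do not say whether the samples of a genotype were separate plants. The description line of the WT sample of 9–12 cm names *pho*, but its title, source and genotype say WT, and it was used as WT. Panicles of 5–8 cm are called shorter and those of 9–12 cm longer below, and where signals are set against each other WT comes first. Each SD spans the 2 lengths of a genotype, and with so few arrays the precision is low.

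Chlorophyll is built in the plastid from glutamate through porphyrin rings. Protochlorophyllide reductases carry out the step that in flowering plants needs light, and the pigment is then bound by antenna proteins that feed light energy to the photosystems. The Golden2-like factor *GLK1* is known in rice as an activator of such genes, and Rubisco activase clears inhibitory sugars from the enzyme that fixes carbon. In green leaves, transcripts for antenna proteins and Rubisco activase are among the most abundant.

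*OsMADS1*, the silenced gene, had 10166 against 4.6 in shorter and 10671 against 109 in longer panicles, as the labels would have it. *OsMADS15*, whose mutation alters the protein, had 14444 against 15892 and 15321 against 16022. The longer *pho* panicles gave the array least like the rest. Its correlations with the others across tested probe sets were 0.796 to 0.827, compared with 0.877 to 0.935 among the other 3, and each result below is therefore given at each length. Of 10 measured spikelet markers, 6 had both *pho* signals below both WT signals, as did 8 of 11 tapetum markers. The same held for 3 of 5 meiosis and germ cell markers and 2 of 5 shoot meristem markers, beside 21.1% of all tested probe sets. In 3 spikelet markers both *pho* signals lay above both WT signals, beside 17.9%. None of these markers was at 0. Tapetum marker signals summed to 15916 against 4674 in shorter and to 58954 against 3010 in longer panicles. These sums follow the brightest genes, and *MSP1* alone gave 3669 and 1127 of those in *pho*. Within *pho*, 7 of the 11 were at least 2-fold higher at 9–12 cm and 1 lower, beside 13.5% and 10.8% of all tested probe sets. In whole panicles, fewer cells of a type and less RNA per cell cannot be told apart, and the part of tissue make-up in the results was not tested. Actin control probe sets at the 3′ and 5′ ends, whose ratio grows as RNA is degraded, gave ratios of 10.6 against 3.28 in shorter and 4.95 against 5.26 in longer panicles.

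In longer panicles all 7 measured genes had higher signals in *pho* than in WT, and in shorter panicles 6 of 7 did, beside 44.2% and 51.8% of all tested probe sets. At both lengths 6 of 7 were higher and 0 lower, beside 28.5% and 32.5%. Log2 ratios of *pho* over WT, taken on log2(signal + 16), had a median over the 7 genes of 0.46 at 5–8 cm and of 2.96 at 9–12 cm, beside 0.02 and -0.10 over all 23929 probe sets whose signals averaged 100 or more, which are those called tested. All 7 genes were among those probe sets. In 6 of the 7 genes both *pho* arrays lay above both WT arrays, as did 17.9% of all tested probe sets, and in 0 of 7 did both lie below, as in 21.1%. A signal at least 2-fold higher in *pho* was seen for 1 of 7 genes at 5–8 cm and for 6 of 7 at 9–12 cm, against 5.62% and 13.3% of all tested probe sets. None of the 7 was at least 2-fold lower at either length, as 3.78% and 10.5% were. Because the genes were chosen by this very contrast, nothing is read from these counts. The larger ratios were those of the longer panicles, where the *pho* array was least like the rest and the actin ratios of the genotypes were closest. Without that array, the comparison at matched length is the one of the shorter panicles.

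**Figure D1:**
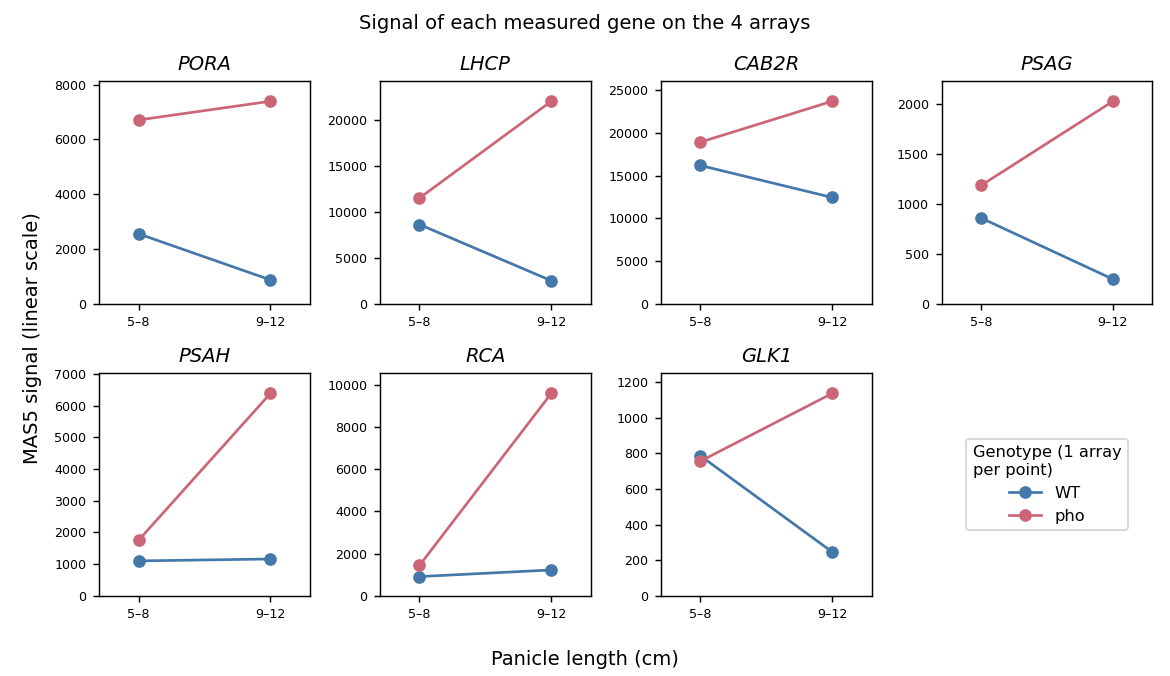
Signals of the 7 measured genes by panicle length (x axis, cm), with 1 point per array and a line joining the 2 arrays of a genotype. The y axes are linear MAS5 signals that start at 0 and differ between panels. WT signals of *PORA*, *LHCP*, *CAB2R*, *PSAG* and *GLK1* are lower at 9–12 cm than at 5–8 cm, and in *PSAH* and *RCA* the *pho* array of 9–12 cm lies far above the other 3.

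The regulator *GLK1* was the member with nearly equal signals in both genotypes at the shorter length. It had 786 against 755 in shorter and 247 against 1136 in longer panicles. The genotypes therefore overlapped, and the WT array of 9–12 cm was the low one. Its log2 ratio of -0.06 at 5–8 cm exceeded that of 42.7% of tested probe sets, and its log2 ratio of 2.13 at 9–12 cm exceeded that of 95.2%. Over both lengths the signal was 516 ± 381 (WT, SD, n = 2) against 946 ± 269 (*pho*, SD, n = 2).

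*PORA*, which encodes a light-dependent protochlorophyllide reductase, was the member with the largest ratio at 5–8 cm. Signals of 2548 against 6709 in shorter and 866 against 7393 in longer panicles gave 2.63 times and 8.54 times the WT signal. Both *pho* arrays were high and differed little from each other, whereas the WT arrays differed 2.94-fold. The mean signal was 1707 ± 1190 (WT, SD, n = 2) against 7051 ± 483 (*pho*, SD, n = 2). On the log2 scale the ratio was 1.39 at 5–8 cm and 3.07 at 9–12 cm, above 97.2% and 97.9% of tested probe sets, nearly the same place among them at both lengths.

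*LHCP* and *CAB2R*, the 2 of the 7 genes that encode chlorophyll a/b-binding proteins of the antenna, differed in how far apart the genotypes lay. *LHCP* had signals of 8632 against 11517 in shorter and 2500 against 22086 in longer panicles. It was 1.33 times and 8.84 times the WT signal, and the WT array of 9–12 cm was the lowest of the 4. The signals averaged 5566 ± 4336 (WT, SD, n = 2) against 16802 ± 7474 (*pho*, SD, n = 2). *CAB2R* had signals of 16185 against 18912 in shorter and 12435 against 23703 in longer panicles. These amounted to 1.17 times and 1.91 times WT, the smallest ratio of the 7 genes at 9–12 cm. All 4 of these signals lay in the upper range of the arrays, whose highest signals were 34615 to 37631. A second probe set of *CAB2R* had 12033 against 13741 and 7239 against 22580, or 1.14 times and 3.12 times WT, so the size of the difference at 9–12 cm depended on the probe set. Antenna genes of this family are alike in sequence, and how far each probe set reads transcripts of its relatives was not tested.

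*PSAG* and *PSAH* encode small nuclear-encoded subunits of photosystem I, and *PSAH* is known from Arabidopsis as part of the site where the mobile antenna docks. *PSAG* had signals of 858 against 1186 in shorter and 245 against 2029 in longer panicles, and its low array was again the WT array of 9–12 cm. Its mean was 552 ± 434 (WT, SD, n = 2) against 1607 ± 597 (*pho*, SD, n = 2). *PSAH* had signals of 1100 against 1752 in shorter and 1160 against 6383 in longer panicles. Here the WT arrays were nearly equal, at 1130 ± 42.4 (SD, n = 2), and the *pho* array of 9–12 cm alone was high, so that *pho* averaged 4068 ± 3274 (SD, n = 2). The *pho* signal was 1.38 times WT for *PSAG* and 1.59 times WT for *PSAH* at 5–8 cm, and 8.29 times and 5.50 times at 9–12 cm. Another probe set of *PSAG*, whose mean signal of 59.4 was too low for the test, had 32.9 against 62.5 and 46.8 against 95.2.

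*RCA* is the Rubisco activase gene. It had 911 against 1438 in shorter and 1225 against 9604 in longer panicles, or 1.58 times and 7.84 times WT. The *pho* array of longer panicles lay far above the other 3, as for *PSAH*. Signals averaged 1068 ± 222 (WT, SD, n = 2) against 5521 ± 5775 (*pho*, SD, n = 2). The gene has 4 probe sets of its own, and in each of them both *pho* arrays exceeded both WT arrays. Across the 4, the *pho* signal was 1.58 to 3.13 times WT at 5–8 cm and 4.46 to 11.7 times WT at 9–12 cm.

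**Figure D2:**
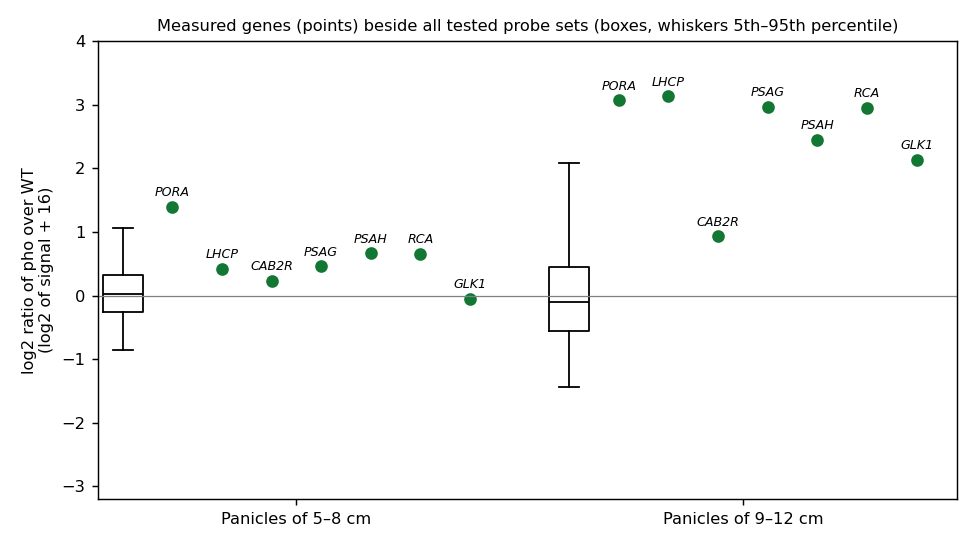
Log2 ratios of *pho* over WT (y axis, from log2 of signal + 16) for the 7 genes (points) beside all 23929 tested probe sets (boxes from the lower to the upper quartile with the median, whiskers at percentiles 5 and 95) at each panicle length. At 5–8 cm only *PORA* lies above the upper whisker, and at 9–12 cm every gene but *CAB2R* does.

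The change with panicle length within each genotype was not part of the rule, but it comes from the same arrays as the contrast that was, so it too is a description. In WT, *PORA*, *LHCP*, *PSAG* and *GLK1* had signals at least 2-fold lower at 9–12 cm than at 5–8 cm, which makes 4 of 7 genes against 3.09% of all tested probe sets, and 0 of 7 were at least 2-fold higher, against 6.76%. Their log2 ratios of 9–12 over 5–8 cm in WT were -1.54, -1.78, -1.74 and -1.61, and 0.7% to 1.0% of tested probe sets had a lower one. *CAB2R* had -0.38. For *PSAH* and *RCA* the WT ratio was 0.08 and 0.42, and that of *PSAH* turned to -0.16 after centring the arrays on their medians. These WT values rest on 1 array per length, and the lengths also differed in the actin ratio, at 10.6 and 4.95, whose part was not tested.

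In *pho* the order was another one. *RCA* and *PSAH* had the largest log2 ratios of 9–12 over 5–8 cm, 2.73 and 1.86, and were the 2 of 7 genes that were at least 2-fold higher at the longer length, as were 13.5% of all tested probe sets, and 0 of 7 were at least 2-fold lower, as 10.8% were. *LHCP*, *PSAG* and *GLK1* had 0.94, 0.77 and 0.58. *CAB2R* and *PORA* had 0.33 and 0.14, which turned to -0.013 and -0.20 under that centring. It moved the median of all tested probe sets from -0.005 to -0.24 in WT and from -0.13 to -0.47 in *pho*. In the deposited scaling 5 of 7 genes were lower with length in WT and higher in *pho*, against 15.5% of tested probe sets, and whether the change with length differs between the genotypes could not be tested with 1 array for each combination.

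A test of panicle length over both genotypes, with a term for genotype, passed 0 of the 7 genes. This limma fit called 0 probe sets higher and 0 lower at an adjusted p under 0.05, or 0.0% in each direction, and 1672 higher and 853 lower at an unadjusted p under 0.05. After centring it called 13 higher and 1 lower, none of them a member. *RCA* had the largest log2 difference of 9–12 over 5–8 cm, 1.57 (SE 0.572, adjusted p = 0.461 from limma), and was the 1 gene of the 7 with an unadjusted p under 0.05. *PSAH* had 0.97 (SE 0.471, adjusted p = 0.514 from limma). For *PORA* it was -0.70 (SE 0.445, adjusted p = 0.580 from limma), and over the 7 genes the adjusted p ran from 0.461 to 0.976. The fit has 1 residual degree of freedom, so it says little about genes that did not pass.

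**Figure D3:**
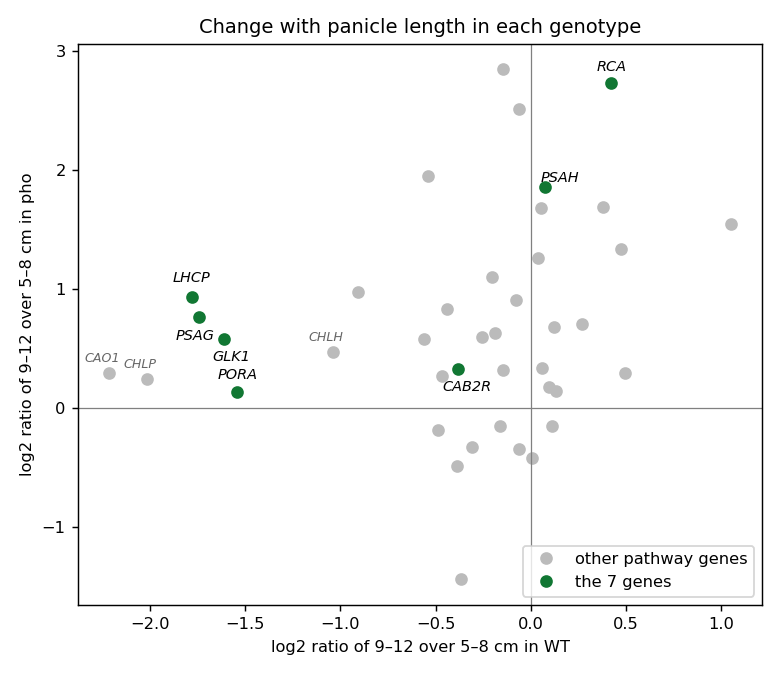
Log2 ratio of the 9–12 cm over the 5–8 cm array in WT (x axis) and in *pho* (y axis), with 1 point per gene for the 7 genes (green) and for the 34 tested genes of the pathway lists beside them (grey). *PORA*, *LHCP*, *PSAG* and *GLK1* lie to the left, near *CAO1*, *CHLP* and *CHLH* of chlorophyll synthesis, and *PSAH* and *RCA* lie to the upper right. *CHLH* is drawn by its brighter probe set, and its second one, not drawn, had 0.05 in WT and -1.36 in *pho*.

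Other genes of chlorophyll synthesis came from a list drawn up with earlier results of these data known, so counts over them are a description. Among them, with *CHLH* left out because its probe sets conflict, *CHLP*, *CAO1* and *PORB* had the largest ratios at 9–12 cm. Each of them has only 1 probe set, so agreement between probe sets could not be checked for them. The list has 23 entries, of which 12 had a probe set, *PORA* included, and *CHLI*, for a subunit of magnesium chelatase, had signals of only 10.1 to 36.4 and was not tested. Of the 10 other tested genes, 8 were higher in *pho* at both lengths and none was lower at both, beside 28.5% and 32.5% of all tested probe sets. Log2 ratios had a median of 0.30 in shorter and 1.04 in longer panicles. None of the 10 passed limma's test of *pho* against WT. It called 0 of 23929 probe sets higher and 0 lower, or 0.0% in each direction. At an unadjusted p under 0.05 it had 826 higher and 809 lower. Even the silenced *OsMADS1* did not pass (adjusted p = 0.181 from limma), and the lowest adjusted p of any probe set was 0.0773. The 2 arrays of a genotype differ in panicle length, so the spread behind each p holds the change with length. Not passing this test therefore says little about a gene, here and in the lists below. With panicle length as a block that pairs the arrays 8 probe sets were higher and 32 lower. After centring arrays on their medians they were 11 and 40, with none of the pathway genes among either.

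*CHLP*, whose geranylgeranyl reductase supplies the phytol tail of chlorophyll, had signals of 4081 against 5147 in shorter and 997 against 6103 in longer panicles (adjusted p = 0.762 from limma). *CAO1*, for the oxygenase that makes chlorophyll b, had 1596 against 1699 in shorter and 332 against 2089 in longer panicles (adjusted p = 0.763 from limma). In both genes the 2 arrays of 5–8 cm were close and the WT array of 9–12 cm was low, as in *LHCP*, *PSAG* and *GLK1*. *CHLH*, for the porphyrin-binding subunit of magnesium chelatase, had 861 against 1835 in shorter and 410 against 2558 in longer panicles (adjusted p = 0.563 from limma). Its second probe set ran the other way, at 1487 against 957 in shorter and 1536 against 363 in longer panicles, so no direction is given for *CHLH* and the counts above hold its brighter probe set. *PORB*, the other protochlorophyllide reductase, had 1504 against 2344 in shorter and 1013 against 3508 in longer panicles (adjusted p = 0.643 from limma).

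The other 6 genes had smaller ratios than those 4 at 9–12 cm, though not in each case at 5–8 cm. *HEMB*, for the enzyme that joins aminolevulinic acid into the first ring, had log2 ratios of *pho* over WT of 0.27 at 5–8 cm and 1.53 at 9–12 cm. *GSA*, for the enzyme that makes aminolevulinic acid, had 0.66 and 0.46. *HEMG*, for protoporphyrinogen oxidase, had 0.26 and 0.54, and *CHLD*, for another subunit of magnesium chelatase, 0.41 and 0.43. *HEMD*, for uroporphyrinogen synthase, had 0.06 and -0.05, and *YGL1*, the chlorophyll synthase of the last step, 0.14 and -0.14. The adjusted p of these 6 genes was 0.758 to 1.0 from limma.

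**Figure D4:**
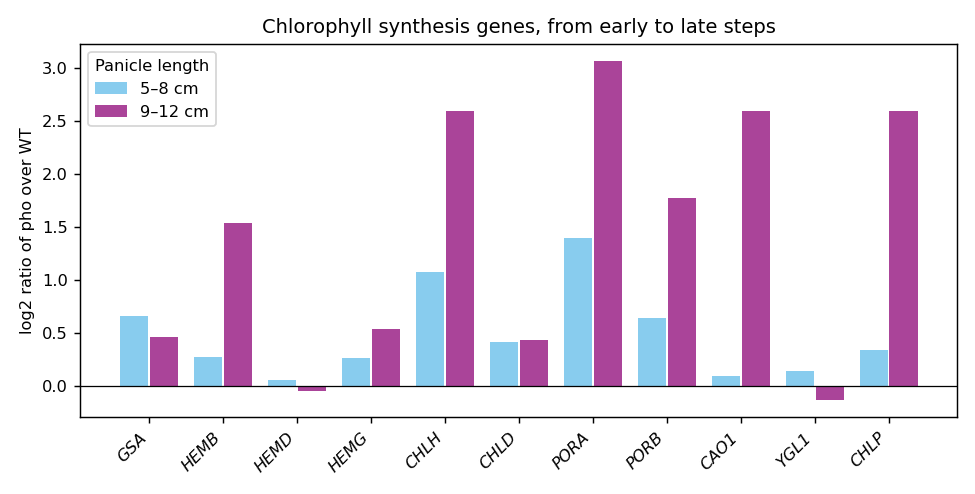
Log2 ratio of *pho* over WT (y axis, from log2 of signal + 16) at 5–8 cm and 9–12 cm for the 11 tested genes of chlorophyll synthesis, each bar from 1 array per genotype, ordered from early to late steps with *CHLP*, of the phytol branch, last. *PORA*, *CHLH*, *CAO1* and *CHLP* have the tallest bars at 9–12 cm, though the second probe set of *CHLH* ran the other way, and *HEMD* and *YGL1* lie near 0.

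The pathway lists also hold light harvesting, the photosystems, electron transport, the Calvin cycle, chlorophyll breakdown, regulators of greening and plastid development. Over all lists, 35 genes beside the 7 had a probe set and 34 were tested. Only 3 of 20 entries for light harvesting and 2 of 10 for photosystem I matched a gene. Those lists gave 0 genes beside the 7, and that of photosystem II gave 1, so the counts hardly cover antenna and photosystem genes. As above, the counts are a description. Of the 34 tested genes, 25 were higher in *pho* at both lengths and 1, *V2*, was lower at both, beside 28.5% and 32.5% of all tested probe sets. In 23 both *pho* arrays lay above both WT arrays, beside 17.9%. Signals at least 2-fold higher in *pho* were found for 2 of 34 at 5–8 cm, a share near the 5.62% of all tested probe sets. At 9–12 cm they were found for 19 of 34, beside 13.3%. The 19 include *CFBP1*, which reached the minimum mean signal only through the *pho* array of 9–12 cm. The log2 ratios had a median of 0.27 in shorter and 1.06 in longer panicles. None passed limma's test in either direction, the adjusted p ran from 0.550 to 1.0, and 6 had an unadjusted p under 0.05. The smaller median was that of the shorter panicles, but single genes such as *GSA*, *PHYC* and *YGL1* had their larger ratio there.

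On the list of Rubisco and the Calvin cycle, 5 genes beside *RCA* were tested. Of these, 4 were at least 2-fold higher in *pho* at 9–12 cm, beside 13.3% of all tested probe sets, and 0 passed the test. Among the 4, *CFBP1* had 77.9 against 55.4 in shorter and 74.1 against 391 in longer panicles. It reached the minimum mean signal only through the array where it was high. *RBCS*, for the small subunit of Rubisco, had signals of 1654 against 2852 in shorter and 1134 against 11042 in longer panicles (adjusted p = 0.684 from limma). At 9–12 cm this brightest probe set was 9.74 times WT. Another tested probe set of *RBCS* was 1.32 times WT in shorter and 2.37 times in longer panicles. A further one was 1.23 and 5.42 times WT, so the size of the difference depended on the probe set. *ALDP*, for the plastid aldolase of the Calvin cycle, had 783 against 2925 in shorter and 1023 against 9466 in longer panicles (adjusted p = 0.550 from limma). Both genes were highest in the *pho* array of 9–12 cm, and *ALDP* was 1 of the 2 genes of 34 that were at least 2-fold higher at 5–8 cm. The other was *CHLH* by its brighter probe set, which its second probe set contradicts. *PETC*, for the Rieske protein of the cytochrome complex, had 998 against 1871 in shorter and 1025 against 4510 in longer panicles (adjusted p = 0.662 from limma). *PETE*, for plastocyanin, had 12235 against 14467 in shorter and 13083 against 16413 in longer panicles (adjusted p = 0.783 from limma). *LFNR1*, for a ferredoxin reductase, had 293 against 272 in shorter and 624 against 825 in longer panicles (adjusted p = 0.967 from limma). *TPI*, for triosephosphate isomerase, had log2 ratios of 0.17 and -0.09, and its 2 tested probe sets differed in sign. *PSB28* was the 1 gene of the photosystem II list with a probe set of its own. It had 693 against 738 in shorter and 362 against 1470 in longer panicles (adjusted p = 0.762 from limma). Its WT array of 9–12 cm was the lowest, as in *PSAG*.

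Of 5 genes of chlorophyll breakdown, 3 were higher in *pho* at both lengths and 0 were lower at both, beside 28.5% and 32.5% of all tested probe sets. None of the 5 passed the test, and they had a median log2 ratio of 0.27 at 5–8 cm and 1.24 at 9–12 cm. *SGR*, the stay-green gene that starts the removal of magnesium from chlorophyll, had signals of 548 against 201 in shorter and 495 against 1540 in longer panicles (adjusted p = 0.982 from limma). Its lower *pho* array was thus the one of 5–8 cm and its highest that of 9–12 cm. *NYC4*, needed for thylakoid formation and for chlorophyll loss in ageing leaves, had 1094 against 1641 in shorter and 1323 against 2686 in longer panicles (adjusted p = 0.759 from limma). *NYC1*, a chlorophyll b reductase gene, had log2 ratios of 0.27 and 1.25.

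Among 2034 named genes outside these lists, the 5 whose centred log2 profile over the 4 arrays lay nearest to the mean profile of the 7 genes were *NH3*, *LOGL5*, *RCABP69*, *SMR1* and *ADI1*, with Euclidean distances of 0.139 to 0.308. The 7 genes themselves lay 0.633 (*PSAG*) to 1.55 (*RCA*) from their own mean, so the mean profile stands for no single one of them. *RCABP69*, named for a chlorophyll-binding protein, had signals of 2522 against 4321 in shorter and 1690 against 9367 in longer panicles. *ADI1*, which the gene table also lists as a ferredoxin, had 4287 against 6243 in shorter and 2698 against 16315 in longer panicles. *NH3*, the nearest, had 756 against 968 in shorter and 359 against 2066 in longer panicles. The distances rest on 4 arrays and are a description only.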

How the data were processed

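The authors summarized each probe set of the Affymetrix GeneChip Rice Genome Array as a MAS5 signal intensity in GCOS, version not given in the sources used here, and scaled each array to 1 overall intensity. The deposited intensities are linear, with 1 column per array, and the mean trimmed by 2% at each end was 500.1 on each array. Such scaling makes signals relative to the total, and detection calls were not used here. No pair of arrays shared more than 236 identical signals. Of 57381 probe sets, 123 controls were left out, and 22436 of the rest have 1 gene in the platform annotation. Gene names came from the table of assembly ASM3414082v1. Sequences of genes and probes were not analysed here.

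Probe sets whose mean signal reached 100, 23929 in all, were fitted as log2(signal + 16) with lmFit and eBayes with an intensity trend (limma 3.58.1, R 4.3.3), two-sided, adjusted by Benjamini-Hochberg over all of them. Genotype was the only term for *pho* against WT, so the spread in that test holds the change with panicle length. Length was tested with genotype as a term. Replicate numbers stand for panicle length, so they pair the arrays by the labels, and the deviations of same-numbered arrays from their genotype means correlated at 0.311. The procedure was also run on simulated data with a smaller spread than these arrays and no effect of length. That run therefore does not measure how well the fit detects changes here. Alternatives were a pseudocount of 1 or 64, no minimum signal or one of 200, quantile normalization, centring of arrays on their medians, a block for panicle length, no intensity trend, dropping s_at and x_at probe sets, dropping single arrays, and averaging a gene's probe sets. The members and lists were chosen with earlier results of these data known. Named were all members, every measured gene of chlorophyll synthesis, up to 3 genes of each other pathway list by mean signal, the 5 nearest profiles and the genes altered in *pho*. *GLK2* and *CFBP1* were added to these after their values were seen. Figures were drawn with Python 3.11.15 and matplotlib 3.10.9.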

Additional observations from a re-analysis of the deposited data

Results flagged for a closer look

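For 5 genes the 9–12 cm array lay below the 5–8 cm array in WT and above it in *pho*. The log2 change with length was larger in *pho* than in WT by 1.68 for *PORA*, 2.72 for *LHCP*, 0.705 for *CAB2R*, 2.51 for *PSAG* and 2.19 for *GLK1*. With 1 array per genotype and length, these differences were not tested. In *pho*, the direction for *PORA* and *CAB2R* turned after centring arrays on their medians. *GLK1* also had its *pho* signal slightly below WT at 5–8 cm and above it at 9–12 cm, and the 2 log2 ratios differed by 2.19, which was not tested either.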

How the results depend on the processing

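Median log2 ratios of the 7 genes kept their direction at both lengths, and 6 of 7 were higher in *pho* at both lengths, under each pseudocount, scaling and probe set rule tried. A pseudocount cannot change which signal of a pair is larger, so only the other settings could have changed these directions. Averaging probe sets leaves *PORA*, *LHCP*, *PSAH* and *GLK1* as they were, because each has 1 probe set. The median difference of log2 means of *pho* and WT over the 7 genes was 1.72 and ranged from 0.75 to 2.24 when each array was left out. It was 0.75 without the *pho* array of 9–12 cm and 0.88 without the WT array of 9–12 cm. Leaving out 1 array sets unlike panicle lengths against each other, and at matched length the shorter panicles alone gave a median of 0.46, with *GLK1* lower in *pho*. After centring arrays on their medians, which moved the median log2 ratio of all tested probe sets at 9–12 cm from -0.10 to -0.24, the log2 ratio of 9–12 over 5–8 cm was -0.20 for *PORA* and -0.013 for *CAB2R* in *pho* and -0.16 for *PSAH* in WT, and limma made 11 higher and 40 lower calls for *pho* against WT and 13 higher and 1 lower calls for length, compared with 0 in the deposited scaling. Pairing the arrays through a block for panicle length gave 8 higher and 32 lower calls, with none of the 34 other pathway genes among them. The causes were not tested. Left-out arrays, from 0 to 0 calls in each direction, changed no count. The lowest adjusted p of those 34 genes under any setting was 0.0726 from limma, for *ALDP* without the *pho* array of 5–8 cm, a fit in which *pho* is the single array least like the rest, assumed to vary like WT. Of 223 values recomputed, 212 kept their direction and size. The size of a log2 ratio counted as kept if it moved by less than 0.603, the median within-genotype SD of the 7 genes. That is more than the median ratio of 0.46 at 5–8 cm. Some of the 212 could not move, such as averages over a single probe set, so their share does not measure stability.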

Other observations

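Genes of light perception and plastid development that the text has not yet described differed among themselves. *PHYA*, for the phytochrome that acts in dim light, had 3016 against 6016 in shorter and 2696 against 5420 in longer panicles (adjusted p = 0.550 from limma), so both *pho* arrays lay above both WT arrays by a like amount. *PHYC*, for another phytochrome, had 2211 against 3410 and 2218 against 2544 (adjusted p = 0.794 from limma). *LSD1*, a zinc-finger gene of the same list, had 8632 against 9230 and 6244 against 11116 (adjusted p = 0.763 from limma). Another of its tested probe sets had 6839 against 4090 and 3379 against 6425, and a further one 6249 against 6118 and 4148 against 8201. The direction for *LSD1* at 5–8 cm thus depended on the probe set, and the counts above hold its brightest. *GLK2*, the relative of *GLK1*, was picked out after its values were seen and had 2171 against 2389 and 1964 against 2995 (adjusted p = 0.796 from limma). Of 3 genes of plastid development, *V2*, for a guanylate kinase, had 2347 against 2020 and 1819 against 737 (adjusted p = 0.795 from limma). *ASL1* had 1014 against 1309 and 1417 against 3338 (adjusted p = 0.783 from limma), and *VAR2* had 1237 against 1504 and 1085 against 2344 (adjusted p = 0.762 from limma). None of these genes passed the test.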
